A study of Solanum lycopersicum with 9 samples.

Results

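The H3K27me3 peaks of tomato leaves (*Solanum lycopersicum*, cultivar M82) were compared between wild type (WT) and *ddm1*. All peaks on the 12 chromosomes of the M82 assembly (V1.0) in the 3 H3K27me3 lists were taken, 1 list from WT and 2 from *ddm1*. They numbered 114520 of the 266074 peaks in the 9 lists of the series, with 35712 from WT, 32491 from *ddm1* replicate 1 and 46317 from *ddm1* replicate 2. The study examined 4 histone H3 marks by chromatin immunoprecipitation and sequencing (ChIP-seq) in both genotypes. The *ddm1* plants carried CRISPR-Cas9 mutations in both tomato copies of the gene, *Slddm1a* and *Slddm1b*. Both genotypes were grown in soil under the same light and temperature, and leaves of 1-month-old plants were used without further treatment.

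H3K27me3 is deposited on histone H3 by Polycomb repressive complex 2 and marks facultative heterochromatin, the silent state of developmental and stress genes that can be reversed. In plants it lies mainly over genes on the chromosome arms and is sparse over transposons, whose silencing rests on DNA methylation and H3K9me2. DDM1 is a chromatin remodeller that gives methyltransferases access to such constitutive heterochromatin. In tomato, this compartment fills the large central part of most chromosomes, and genes concentrate towards the ends.

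Some properties of the lists bear on every value below. WT had 1 list and *ddm1* had 2, so no test could reach significance (the smallest p an exact permutation test could give is 0.33), none was made, and the 2 replicates are given side by side. The methods of the study give 2 biological replicates per genotype for ChIP-seq. Whether the WT list is 1 of these or both joined is not stated, so it may be unlike the *ddm1* lists in this. Whether a list stands for 1 plant or pooled plants is not stated either. The replicate 2 list was deposited under a name that carries WT, and so are the peaks in it, whereas its label says *ddm1*. The label was kept, and each result is given for replicate 1 alone as well. The background level of the peak caller, which rises with sequencing depth, was estimated as 7.05 reads in WT, 6.47 in replicate 1 and 13.5 in replicate 2. It rests on 48, 54 and 31 peaks, respectively, and the part of this higher level in the replicate 2 values was not tested.

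The first question was how many peaks each chromosome held. In total, replicate 1 had 0.910 times as many peaks as WT and replicate 2 had 1.297 times as many, a mean of 1.10 ± 0.274 (SD, n = 2). The 2 replicates thus lay on opposite sides of WT. Single chromosomes differed from this total. Both replicates had more peaks than WT on chromosomes 1, 5, 10 and 12, and both had fewer on chromosomes 2, 3 and 6. On the other 5 chromosomes replicate 1 was lower and replicate 2 higher. With only peaks of a q of 0.01 or lower, a limit that 80.9% of WT, 48.8% of replicate 1 and 62.2% of replicate 2 peaks met, the ratios were 0.549 and 0.998.

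Chromosome 10 had the largest ratio in both replicates. It held 2739 peaks in WT, 3234 in replicate 1 and 4881 in replicate 2, which is 1.18 and 1.78 times the WT number. Chromosome 6 stood at the other extreme with 3108, 2089 and 2618 peaks, or 0.672 and 0.842 times WT. In WT the densest chromosome was chromosome 2 with 60.4 peaks per Mb and the sparsest was chromosome 12 with 35.1 per Mb. In both *ddm1* lists the densest was chromosome 10, with 48.8 and 73.6 peaks per Mb.

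The length covered by peaks did not change in a shared direction on any chromosome. Peaks covered 42.8 Mb in WT (5.34% of the 802 Mb analysed), 23.6 Mb in replicate 1 (2.94%) and 128 Mb in replicate 2 (16.0%). The *ddm1* to WT ratio was 0.552 in replicate 1 and 2.99 in replicate 2. On 12 of 12 chromosomes replicate 1 was below WT and replicate 2 above it. The ratio ran from 0.467 on chromosome 6 to 0.639 on chromosome 10 in replicate 1, and from 1.67 on chromosome 3 to 4.22 on chromosome 1 in replicate 2.

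**Figure D1:**
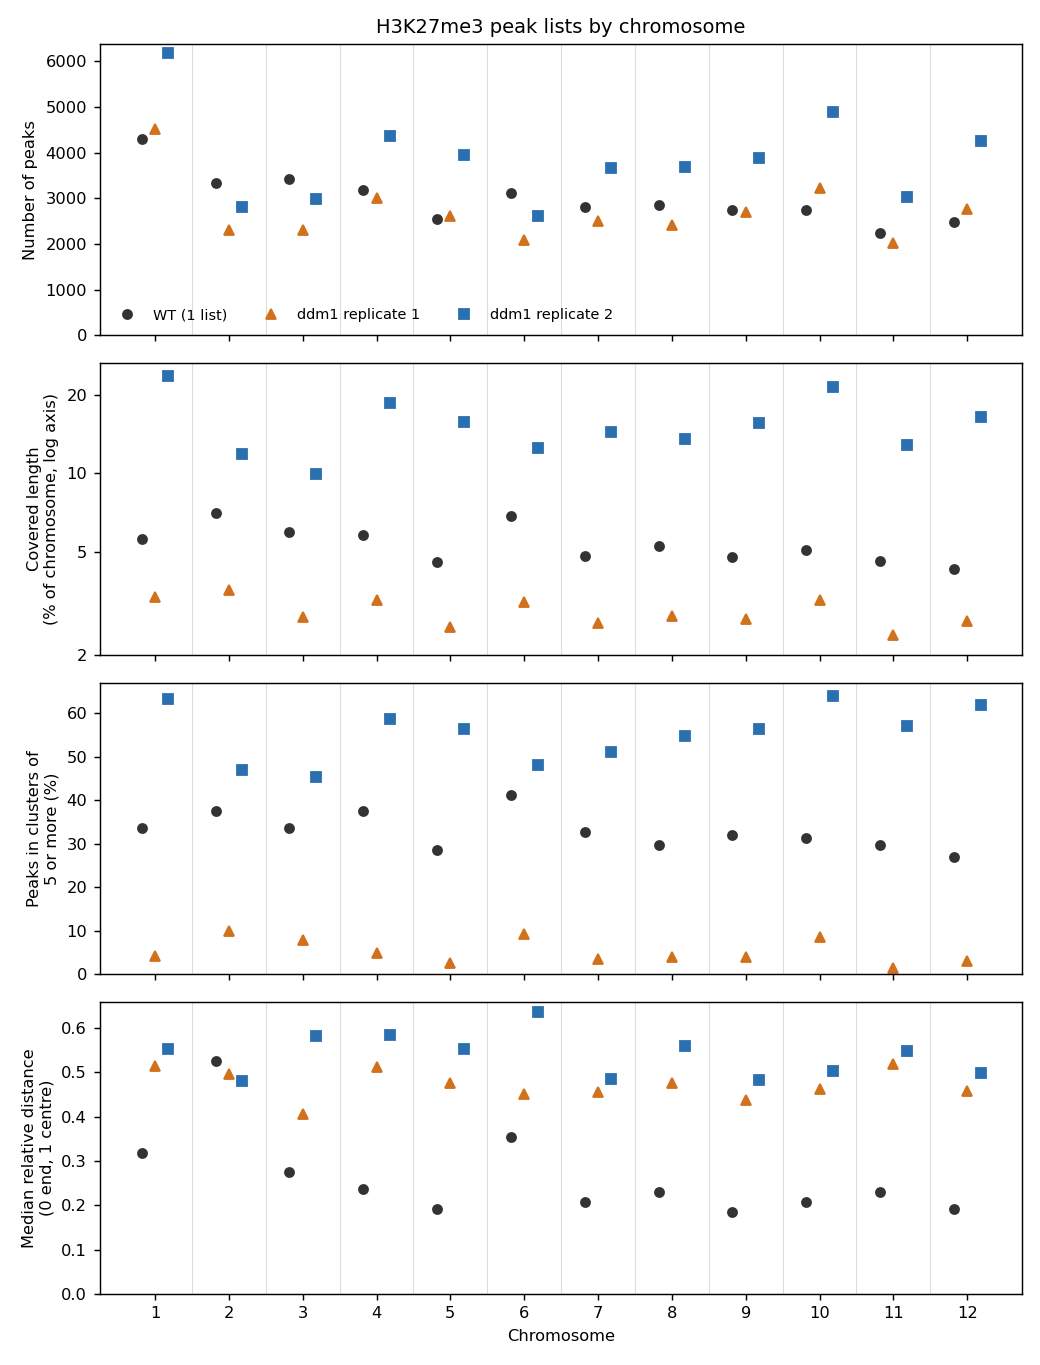
Number of H3K27me3 peaks, covered length (% of the chromosome, log axis), share of peaks in clusters of 5 or more (%) and median relative distance from chromosome end (0) to centre (1), each by chromosome and list, with 1 point per list and no error bars. Covered length and clustering placed replicate 1 below and replicate 2 above WT on 12 of 12 chromosomes, whereas the distance was higher in both replicates on 11 chromosomes and lower in both on chromosome 2.

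Peak length separated the replicates at the long end. WT peaks had a median length of 909 bp, against 509 bp in replicate 1 and 906 bp in replicate 2. The longest 10% of peaks started at 2607 bp for WT, at 1575 bp for replicate 1 and at 6170 bp for replicate 2. The shortest 10% ended at 246 bp in WT, 225 bp in replicate 1 and at 296 bp in replicate 2. Replicate 1 was therefore shorter at each of these points, and replicate 2 was longer than WT at both ends of the range and close to it at the median. The median was lower than in WT in both replicates on 8 chromosomes. The smallest ratio to WT was 0.892 in replicate 2, on chromosome 11, and in replicate 1 the ratio ran from 0.501 to 0.676. When peaks with a higher q than 0.01 were left out, the medians stood at a ratio to WT of 0.672 in replicate 1 and 1.51 in replicate 2, so the median of replicate 2 then exceeded that of WT.

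Very long peaks were seen in replicate 2 alone. It had 2553 peaks longer than 10 kb, and WT and replicate 1 had 0, with a longest peak of 6435 bp and 5080 bp. These peaks covered 57.0 Mb, which was 44.5% of the covered length of replicate 2. Their number was lowest on chromosome 2 (101) and highest on chromosome 1 (507). The longest peak of replicate 2 measured 185363 bp, on chromosome 7.

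The places of the long peaks were partly marked in replicate 1 too. Of the 2553, 88.4% were overlapped by a replicate 1 peak, with a median of 2 replicate 1 peaks each, but replicate 1 peaks covered only 6.17% of their length. No WT peak overlapped 71.8% of them, and WT peaks covered 5.02% of their length. Over all chromosomes, replicate 1 peaks covered 2.94% and WT peaks 5.34% of the length. The long peaks took up 7.11% of the analysed length and held 14.9% of the covered length of replicate 1. The long peaks had a median relative distance of 0.555 and a median fold enrichment over background of 2.81. Where replicate 2 held a continuous peak, replicate 1 thus mostly held a few short ones and covered more than its average. WT had no peak in most of these places, but its covered share over all of them was near its average.

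Spacing was measured as the gap from the end of a peak to the start of the next. WT had a median gap of 3244 bp, against 8413 bp in replicate 1 and 1346 bp in replicate 2, and on 12 of 12 chromosomes replicate 1 was wider and replicate 2 narrower than WT. The 3 lists also differed in how uneven the gaps were. The coefficient of variation of the gaps was 4.35 in WT, 2.69 in replicate 1 and 3.83 in replicate 2. It was lower than in WT in both replicates on 11 chromosomes, with chromosome 1 as the exception, where replicate 2 reached 4.71 against 3.84 in WT. The distance from WT exceeded the distance between the replicates on 4 chromosomes.

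**Figure D2:**
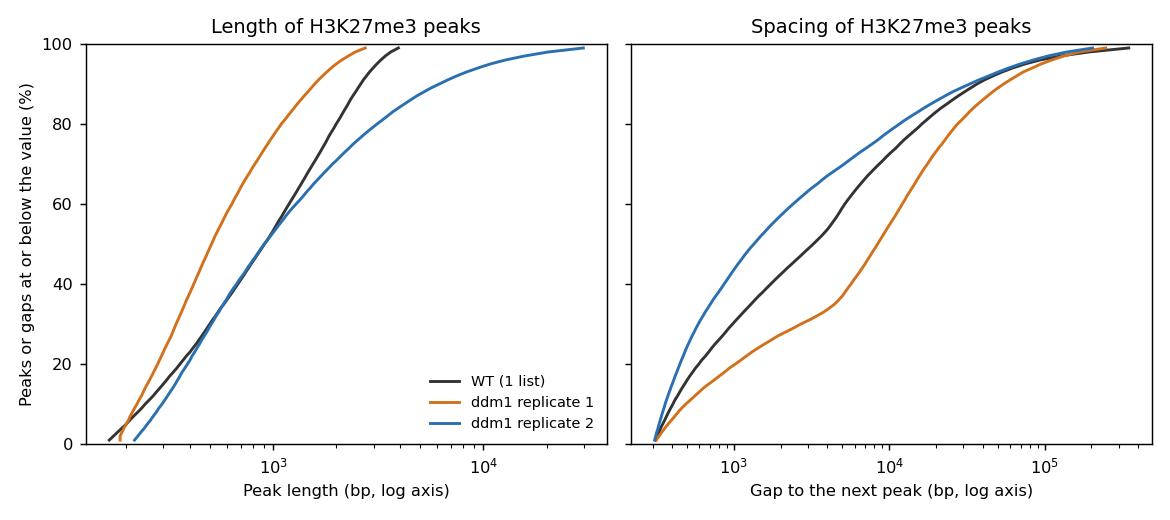
Cumulative share (%) of peaks by length (left) and of gaps by size (right), on log axes, from percentile 1 to 99 of each list. Replicate 1 had shorter peaks (median 509 bp) and wider gaps (median 8413 bp) than WT, whereas replicate 2 was close to WT at the median length (906 against 909 bp) and extended to longer peaks, with narrower gaps (median 1346 bp).

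Peaks no more than 5 kb apart were linked into domains, and a domain of 5 or more peaks was called a cluster. WT had 1754 clusters holding 33.2% of its peaks. Replicate 1 had 290, holding 5.22%, and replicate 2 had 3014, holding 56.5%. Peaks with no neighbour within 5 kb made up 17.3% of the WT list, 38.0% of replicate 1 and 12.03% of replicate 2. Clustering was lower in replicate 1 and higher in replicate 2 on every one of the 12 chromosomes.

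Among chromosomes, the WT share of peaks in clusters ran from 26.9% on chromosome 12 to 41.3% on chromosome 6. In replicate 1 it ran from 1.53% on chromosome 11 to 10.1% on chromosome 2, so even the highest chromosome stayed under the lowest of WT. In replicate 2 it ran from 45.3% on chromosome 3 to 63.8% on chromosome 10, above the highest of WT. The ranges of the 3 lists did not overlap.

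The longest domains lay in different places. In WT they were chr4:59671003-59733520 (62.5 kb, 17 peaks), chr4:57583267-57642193 (58.9 kb, 23 peaks) and chr1:72662883-72718571 (55.7 kb, 19 peaks), at 90.1%, 87.0% and 78.3% of the length of their chromosomes and with H3K9ac peaks among them. In replicate 1 all 3 lay within a single stretch of chromosome 10, described further on. In replicate 2 the longest was chr7:46421982-46944938, where 22 peaks covered 509 kb of 523 kb. WT peaks covered 8.70 kb and replicate 1 peaks 14.0 kb of the same interval. The next, chr5:52068031-52485251 (417 kb) and chr1:10838010-11233412 (395 kb), had 12.7 and 9.33 kb of WT peaks and 20.2 and 22.8 kb of replicate 1 peaks. In all 3 intervals replicate 1 therefore had more covered length than WT.

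The position of peaks between chromosome end and centre showed the clearest change that both replicates shared. Each peak was given a relative distance, 0 at the nearer chromosome end and 1 at the middle of the chromosome. The median was 0.257 in WT, 0.476 in replicate 1 and 0.537 in replicate 2, a mean difference of 0.250 ± 0.0433 (SD, n = 2). The inner 50% of the way held 23.8% of WT peaks, 47.2% of replicate 1 peaks and 53.4% of replicate 2 peaks. The difference from WT was 23.4 percentage points in replicate 1 (95% Newcombe interval 22.7 to 24.1) and 29.6 in replicate 2 (29.0 to 30.2), where the intervals cover counting error only.

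The outermost 20% of the way lost its rank in both replicates. It held 41.3% of WT peaks, 17.4% of replicate 1 peaks and 11.9% of replicate 2 peaks. The innermost 20% held 7.42%, 17.7% and 20.9%. On 12 of 12 chromosomes the innermost share was higher in both replicates, and each time the distance to WT exceeded the distance between the replicates. The outermost share was lower in both on 11 chromosomes.

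Chromosome 2 was the exception. Its median relative distance was 0.526 in WT, 0.497 in replicate 1 and 0.480 in replicate 2. In WT its left 10% was covered to 1.24% and its right 10% to 12.3%, so 1 of its ends was poor in H3K27me3 from the start, whereas the left 10% of the other chromosomes was covered to between 8.83% and 11.8%. This left end rose to 2.16% in replicate 1 and 17.7% in replicate 2, and the right end fell to 6.35% and 9.93%. Chromosome 2 thus fell at its right end, as the other chromosomes did, and rose at its left.

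Peak density was measured in 10 steps from end to centre. In WT it fell from 93.9 peaks per Mb in the first step to 16.5 in the last. In replicate 1 it started at 30.7, was highest at 48.2 in the fourth step and ended at 34.4. In replicate 2 it started at 26.8, reached 71.05 in the fourth step and ended at 59.7. The *ddm1* to WT ratio of peak density thus rose from 0.327 to 2.08 in replicate 1 and from 0.285 to 3.61 in replicate 2.

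Covered length followed the same gradient but crossed the WT level at different points. In the outermost step, WT peaks covered 10.9%, replicate 1 peaks 3.06% and replicate 2 peaks 4.68% of the length, ratios of 0.282 and 0.430. Replicate 2 exceeded WT from the third step inwards, by 2.44-fold there and by 6.44-fold in the innermost step. Replicate 1 reached the WT level only in the last 2 steps, at 1.09 and 1.02 times WT. The loss at the ends was therefore shared, whereas over most of the pooled interior steps replicate 2 alone exceeded WT. By chromosome, the covered share of the middle 50% was higher in both replicates on 8 (4, 5 and 7 to 12), and on chromosomes 1, 2, 3 and 6 replicate 1 was below WT.

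**Figure D3:**
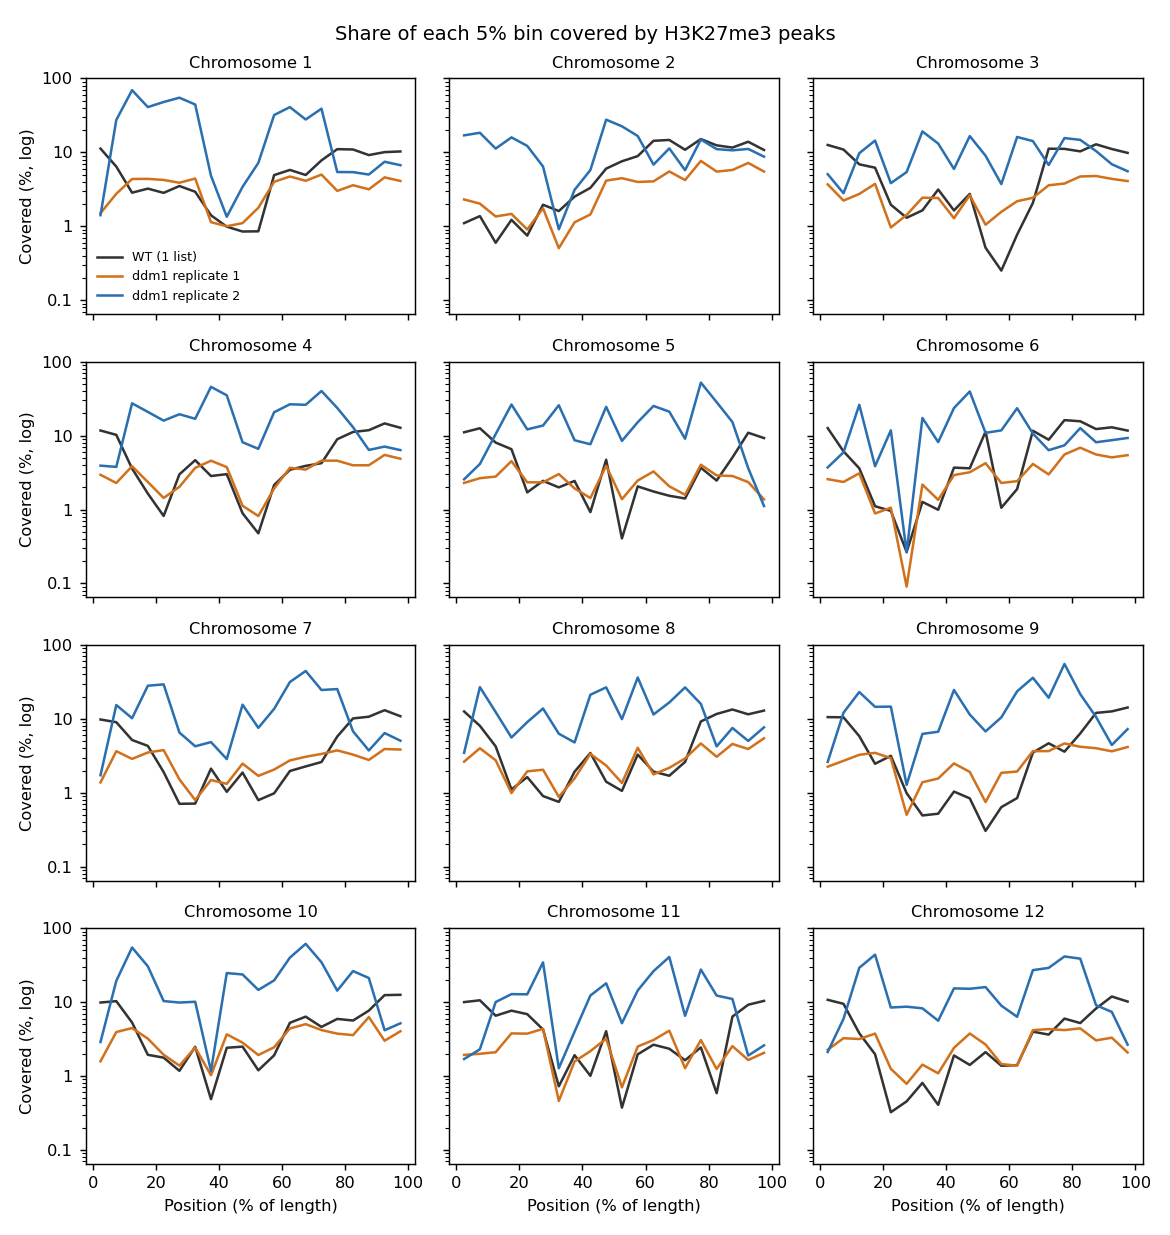
Share of each bin of 5% of chromosome length that H3K27me3 peaks covered (%, log axis), against position along the chromosome (% of length), for 1 WT list and 2 *ddm1* lists. WT was highest towards the ends except at the left end of chromosome 2, replicate 1 was lower than WT at the right end on all 12 chromosomes, and replicate 2 was highest in the interior, up to 69.4% in a bin of chromosome 1.

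The ends were not alike. In the right 10% of the chromosome, covered length was lower than WT in both replicates on 12 of 12 chromosomes, with medians of 12.1% in WT, 4.06% in replicate 1 and 6.04% in replicate 2. In the left 10% it was lower in both on 8 chromosomes. On chromosomes 1, 8 and 10, replicate 2 exceeded WT there, and on chromosome 2 both did. The middle 10% was higher in both replicates on 9 chromosomes. On chromosomes 2, 6 and 11, replicate 1 was lower than WT in it.

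Within the interior, the least covered stretches of the 2 replicates coincided on some chromosomes. In a comparison chosen after the profiles had been seen, the stretch of 5 Mb with the least covered length, leaving out the outer 10% on each side, was found on each chromosome and list. The stretches of the 2 replicates shared sequence on 7 chromosomes (1, 2, 4, 6, 8, 9 and 11), and those of WT and each replicate on 5. The number expected by chance was not computed. A stretch was the lowest in all 3 lists on chromosomes 1, 4 and 6. At chr1:35000001-40000000 covered length was 28.7 kb in WT, 16.7 kb in replicate 1 and 22.1 kb in replicate 2. Replicate 2 thus had 0.0187 times its chromosome mean there, although it covered 23.6% of chromosome 1. At chr4:33000001-38000000 the lists held 15.8, 32.0 and 254 kb, and at chr6:12000001-17000000 they held 16.9, 20.3 and 174 kb, which was 0.275 and 0.283 times the chromosome mean in replicate 2. On chromosomes 4 and 6 each replicate thus covered more of the stretch than WT did.

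In 808 windows of 1 Mb, covered length was higher than WT in both replicates in 316 (39.1%) and lower in both in 252 (31.2%). It was lower in replicate 1 and higher in replicate 2 in 227 (28.1%), and the reverse in 2 (0.248%). In the other 11, WT and at least 1 replicate had no covered length. The replicates differed 5.42-fold in total covered length, and its part in the split windows was not tested. The number of windows higher in both depended on the threshold and was 143 with peaks of a q of 0.01 or lower and 200 when a change of at least 1.5-fold was asked for.

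The shared classes lay in opposite parts of the chromosome. A window was called H3K9ac-poor when WT had 15 or fewer H3K9ac peaks in it, 15 being the median. H3K9ac marks active genes, so these windows stand in for gene-poor regions without an annotation. Of the windows higher in both replicates, 89.2% were H3K9ac-poor, and of those lower in both, 7.54% were, against 409 of all 808 windows. The median relative distances of the 2 classes were 0.681 and 0.172. Both classes were set against WT covered length, which followed WT H3K9ac coverage over the 808 windows (Spearman's rho 0.875). Windows with little WT H3K9ac thus had little WT H3K27me3 to exceed. The part of this in the 2 shares was not tested.

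The windows lower in both replicates held 25.8 Mb of WT peaks, 7.74 Mb of replicate 1 peaks and 11.9 Mb of replicate 2 peaks. The replicates were at 0.300 and 0.463 times WT there. The windows higher in both held 4.52 Mb in WT, 8.11 Mb in replicate 1 and 69.7 Mb in replicate 2. In this class the replicates were at 1.80 and 15.4 times WT. Both classes were chosen by these same lengths. Ratios in the first therefore had to lie below WT, whereas those in the second had no upper limit, so the agreement of the replicates cannot be compared between them. In the windows higher in both, median H3K9me2 coverage was 14.6 kb in WT and 5.59 kb in *ddm1*. Median H3K9ac coverage there was 3.72 kb and 35.5 kb, and each mark had 1 list per genotype. Windows lower in replicate 1 and higher in replicate 2 had the same directions, with H3K9me2 at 17.65 and 8.43 kb and H3K9ac at 12.5 and 40.1 kb. In windows lower in both, the directions were opposite, with H3K9me2 at 5.3 and 8.01 kb and H3K9ac at 105 and 86.4 kb.

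Chromosome 9 had the largest share of windows higher in both replicates (55.1%) and chromosome 6 the smallest (20.8%). Chromosome 2 had the largest share lower in both (42.9%), and chromosome 10 the smallest (20.9%).

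The 3 windows with the largest shared rise were H3K9ac-poor. At chr4:9000001-10000000, peaks covered 3.71 kb in WT, 51.1 kb in replicate 1 and 590 kb in replicate 2. At chr1:57000001-58000000 the values were 20.5, 63.1 and 479 kb, and at chr11:38000001-39000000 they were 3.41, 46.0 and 531 kb. In each of these windows WT had between 2 and 5 H3K9ac peaks.

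The 3 windows with the largest shared fall lay near a chromosome end, with their middle at 94.2%, 4.85% and 4.97% of the length. Covered length at chr5:64000001-65000000 was 159 kb in WT, 32.8 kb in replicate 1 and 25.9 kb in replicate 2. It was 159, 23.3 and 35.9 kb at chr1:4000001-5000000, and 153, 32.4 and 24.8 kb at chr12:3000001-4000000. Both replicates were far below WT in each. The number of peaks fell alongside, from 155 to 33 and 25 in the chromosome 5 window.

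The windows with the largest rise in replicate 2 among those that fell in replicate 1 were chr1:12000001-13000000, chr1:24000001-25000000 and chr6:25000001-26000000. In the first, peaks covered 46.9 kb in WT, 44.4 kb in replicate 1 and 716 kb in replicate 2. Peak number, however, rose in both replicates, from 34 to 83 and 106. In the second it rose from 42 to 70 and 119, and in the third from 50 to 94 and 120. In these windows the replicates were split by peak length and not by peak number.

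As a description of profile likeness, Spearman's rho of covered length over the windows of a chromosome (between 53 and 93 windows, which share the library and neighbouring sequence) was computed on each chromosome. Between the replicates it ran from 0.445 on chromosome 6 to 0.824 on chromosome 11. Between WT and replicate 1 it ran from 0.307 on chromosome 5 to 0.861 on chromosome 2, and between WT and replicate 2 from -0.180 to 0.145. The list of replicate 2, whose deposited name carries WT, was therefore ordered more like replicate 1 than like WT on each of the 12 chromosomes. Replicate 1 was ordered more like replicate 2 than like WT on 7 chromosomes and more like WT on 5 (2, 3, 4, 6 and 8).

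The next question was which WT peaks were still called in *ddm1*. An overlap of at least 1 bp was counted. Of the 35712 WT peaks, 26.6% were overlapped in both replicates and 55.4% in neither. Replicate 1 alone overlapped 6.07% and replicate 2 alone 11.9%. Replicate 1 thus overlapped 32.6% and replicate 2 38.5%, on average 35.6% ± 4.15 (SD, n = 2). Replicate 1 peaks covered 2.94% and replicate 2 peaks 16.0% of the analysed length, and the share expected from this alone was not computed. WT peaks overlapped in replicate 2 alone had a median length of 580 bp, of which replicate 2 covered a median of 100%. When at least 50% of the WT peak had to be covered, 15.9% were overlapped in both. The share overlapped in neither was lowest on chromosome 2 (46.3%) and highest on chromosome 5 (63.8%).

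WT peaks with a high −log10 q were overlapped more often. When WT peaks were ranked into 10 equal groups by −log10 q, the lowest group was overlapped in 7.70% of cases by replicate 1 and 22.4% by replicate 2, and the highest group in 75.3% and 64.7%. The share rose in every step in both replicates. Peaks overlapped in both replicates had a median length of 1747 bp and those overlapped in neither of 671 bp. The median fold enrichment ran the other way, at 1.84 and 2.03.

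The share also differed by position, among peaks of high −log10 q as well. In the outermost 20% of the way, 66.4% of WT peaks were overlapped in neither replicate, and in the inner 50% it was 42.3%. Among the 10% of WT peaks with the highest −log10 q, the share overlapped in neither was still 28.7% (95% Wilson interval 26.6 to 30.8) in the outer zone and 13.6% (11.2 to 16.5) in the inner. Replicate 1 overlapped 70.4% of these peaks in the outer zone and 83.6% in the inner. Replicate 2 overlapped 57.5% and 76.6%. Replicate 2 peaks covered 4.68% of the length in the outermost of the 10 steps and 14.2% in the innermost, and replicate 1 peaks 3.06% and 2.23%. The part of this coverage in the difference by position was not tested.

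**Figure D4:**
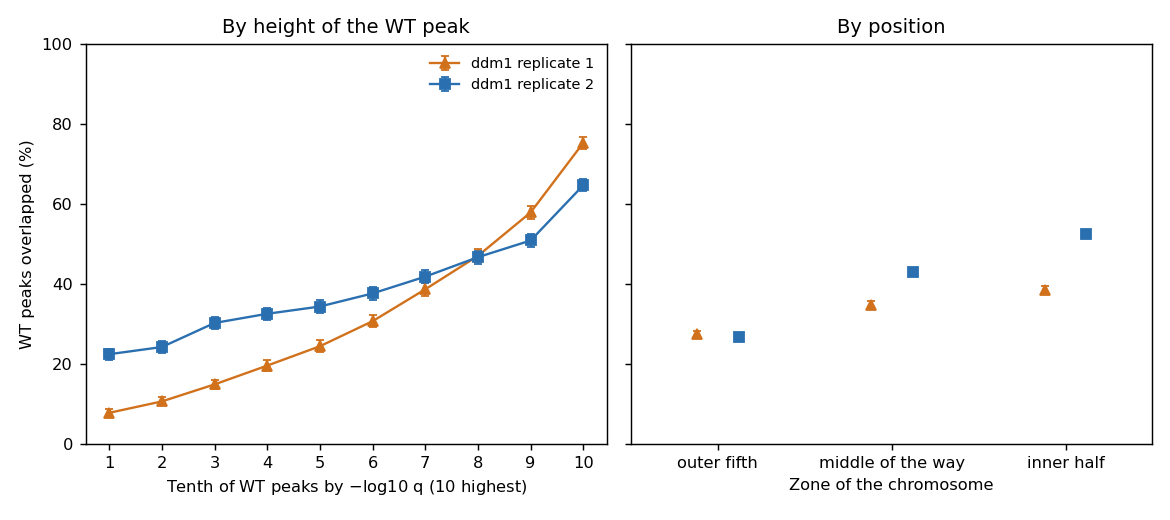
Share of WT H3K27me3 peaks (%) overlapped by at least 1 bp in each *ddm1* replicate, by 10 equal groups of the WT peak's −log10 q (left) and by zone between chromosome end and centre (right), with 95% Wilson intervals for counting error. The share rose from 7.70% to 75.3% in replicate 1 and from 22.4% to 64.7% in replicate 2 with the −log10 q of the WT peak, and was lowest in the outer zone in both.

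In each replicate WT clusters were more often overlapped in part than in full or not at all. A cluster holds 5 or more peaks, so its definition favours partial overlap and no conclusion is drawn from this. Of the 1754 clusters, 243 (13.9%) had no peak overlapped in either replicate and 7 had every peak overlapped in both. In replicate 1, 84.0% of the clusters had some peaks overlapped and some not, and in replicate 2, 59.7% did. The 3 clusters with no overlapped peak and the most covered length were chr7:1069543-1104956 (12 peaks over 12.9 kb), chr12:2568860-2595540 (9 peaks over 11.003 kb) and chr3:3038433-3065891 (10 peaks over 8.46 kb). They lay at 1.59%, 3.67% and 4.57% of the length of their chromosomes. H3K9ac peaks covered 5989 bp of the first in WT and 3748 bp in *ddm1*, and they covered 1548 and 691 bp of the other 2 in WT and 0 bp in *ddm1*.

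Peaks of *ddm1* that shared no bp with a WT peak were called gains. Replicate 1 had 19289 gains, 59.4% of its peaks, and replicate 2 had 35835, 77.4% of its peaks. Of the replicate 1 gains, replicate 2 overlapped 84.1%. Of the replicate 2 gains, replicate 1 overlapped 29.3%. The lists differ 5.42-fold in covered length, so the first share is read from a wide target and the second from a narrow one.

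Sharing of replicate 1 gains did not rest on the long peaks of replicate 2 alone. Of the gains, 4814 (24.96%) lay at a replicate 2 peak longer than 10 kb, and of the rest, 78.8% lay at a shorter one, which is 59.1% of all gains. The shared percentage ran from 75% on chromosome 3 to 88.0% on chromosome 1. It rose with the length of the replicate 1 peak, from 75.5% in the shortest 10% to 95.02% in the longest. Longer peaks meet another peak by 1 bp more easily, so no conclusion is drawn from this rise.

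The gains of replicate 1 that replicate 2 overlapped and those that it did not lay equally far in, with median relative distances of 0.583 and 0.589, against 0.312 for replicate 1 peaks on WT peaks. Both classes of gains were shorter than the replicate 1 peaks on WT peaks, with median lengths of 447 and 345.5 bp against 733 bp. A q of 0.01 or lower was met by 35.1% and 29.0% of them, against 70.2%. Median fold enrichment was 1.89 in the overlapped gains and 2.21 in the others, against 2.21 in the peaks on WT peaks. In replicate 2 the gains that replicate 1 overlapped were longer, with a median of 2616 bp against 587 bp for those that it did not overlap.

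By length, 79.6% of the covered length of replicate 1 lay inside replicate 2 peaks and 49.6% inside WT peaks. On all chromosomes together the 3 lists shared 9.20 Mb, and the replicates shared a further 9.61 Mb outside WT peaks. WT and replicate 1 alone shared 2.51 Mb, and 24.2 Mb was covered in WT alone. In replicate 1, 2.29 Mb was in no other list, and in replicate 2 it was 102 Mb.

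The other marks differed between these classes. Of the replicate 1 gains that replicate 2 overlapped, WT H3K9ac peaks overlapped 0.431% (95% Wilson interval 0.342 to 0.545) and *ddm1* H3K9ac peaks 13.7% (13.2 to 14.3). H3K9me2 peaks overlapped 1.09% of them in WT and 0.160% in *ddm1*, and H3K27me1 peaks, another mark of constitutive heterochromatin, 1.49% and 0.185%. Replicate 1 gains that replicate 2 did not overlap had the same directions, with H3K9me2 at 1.53% and 0.261% and H3K27me1 at 1.04% and 0.359%. In WT peaks overlapped in neither replicate the directions were opposite, at 0.0152% and 0.470% for H3K9me2 and 0.00505% and 0.914% for H3K27me1. The shares expected from position alone were not computed. WT peaks kept in both replicates carried H3K9ac in 26.3% of cases in WT and 25.2% in *ddm1*. Those overlapped in neither, which were shorter, carried it in 16.2% and 12.8%. By length, WT H3K9ac peaks covered 8.58% of the first class and 7.45% of the second, a smaller difference. Each of these marks had a single list per genotype. The *ddm1* H3K9ac list held 76513 peaks against 42622 in WT, a difference whose part in the H3K9ac values was not tested.

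The regions in which both replicates covered the same sequence outside WT peaks were joined over 5 kb into 13559 domains of 9.61 Mb. Of these, 113 held 5 or more shared pieces, 26 of them on chromosome 10 and 3 on chromosome 8. The 3 with the most shared length were chr10:57873295-57911214 (5.31 kb), chr5:21022605-21045977 (5.23 kb) and chr10:33116087-33136643 (5.07 kb). WT peaks covered 0 kb in each.

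Chromosome 10 held the densest block of shared gains, which was singled out after its values had been seen. The stretch between neighbouring WT peaks at chr10:57664555-58395766, 731 kb long, held 0 WT peaks, 200 peaks of replicate 1 and 255 peaks of replicate 2. Of the 199 replicate 1 peaks that lay wholly within it, replicate 2 overlapped 180 (90.5%). Peaks covered 12.8% of the stretch in replicate 1 and 32.7% in replicate 2. The 1 Mb on either side held 192 WT peaks, 103 of replicate 1 and 106 of replicate 2.

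Peaks in this stretch were many and short. Their median length was 375 bp in replicate 1 and 550 bp in replicate 2, and their median gap was 2252 bp and 1008 bp, below the genome-wide 8413 and 1346 bp. The stretch contained the 3 longest replicate 1 domains, chr10:57797528-57841115 (18 peaks), chr10:57873295-57911214 (14 peaks) and chr10:58090929-58119602 (11 peaks). Of the other marks, H3K9ac had 0 peaks in WT and 2 in *ddm1*, H3K9me2 had 3 and 1, and H3K27me1 had 4 and 0.

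**Figure D5:**
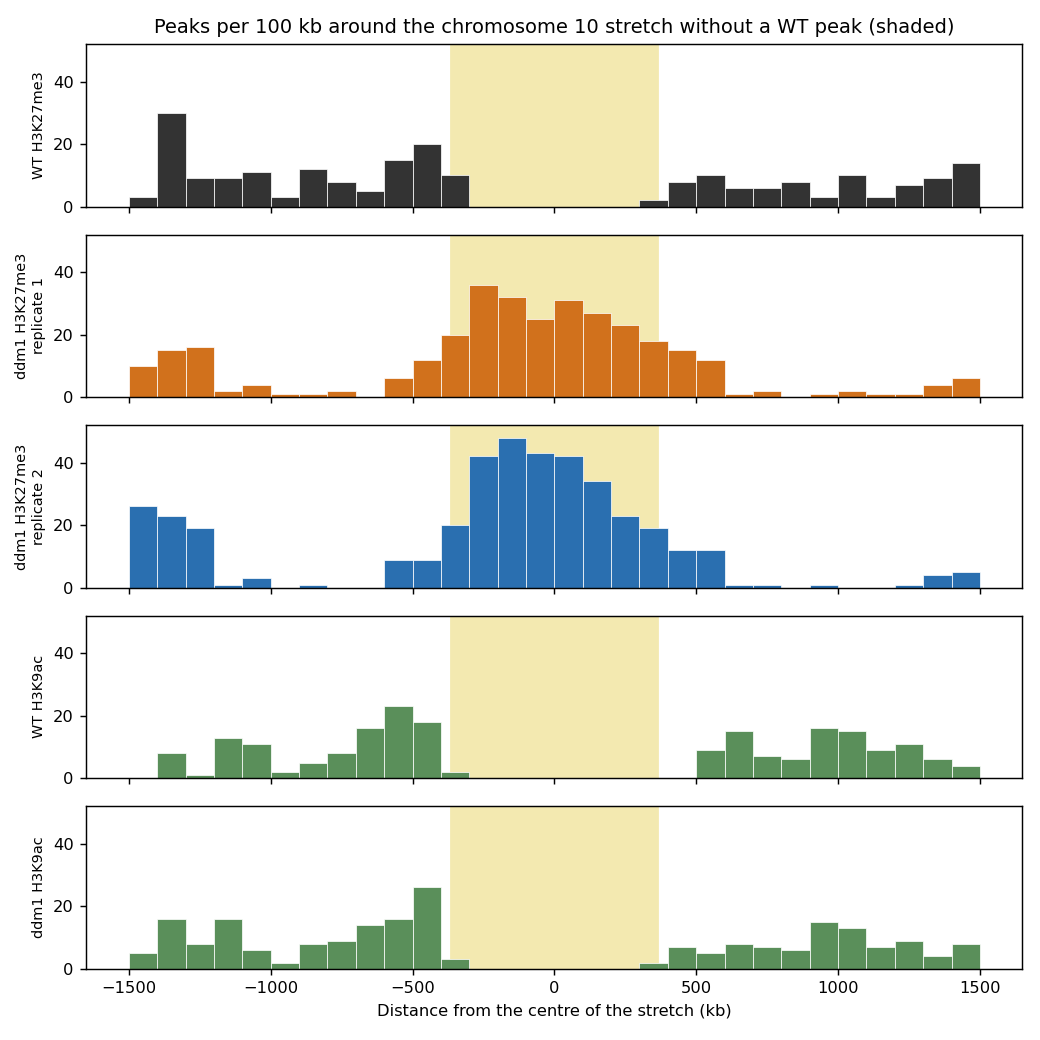
Peaks per 100 kb against distance (kb) from the centre of the stretch of chromosome 10 without a WT H3K27me3 peak (shaded, 731 kb), with 1 list per panel. Both *ddm1* replicates rose over the stretch, to 36 and 48 peaks per 100 kb, where WT H3K27me3 had 0, and H3K9ac peaks stood on both sides of the stretch in both genotypes.

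Most long stretches without a WT peak held peaks in both replicates. There were 1340 such stretches longer than 100 kb, together 441 of the 802 Mb. They held 14450 replicate 1 peaks (44.5% of its list) and 26826 replicate 2 peaks (57.9%). A replicate 1 peak lay in 86.2% of them and a replicate 2 peak in 88.6%. The median density in them was 3.13 replicate 1 and 6.05 replicate 2 peaks per 100 kb, against 4.05 and 5.78 over all chromosomes, so replicate 1 was sparser and replicate 2 about as dense there as elsewhere. The chromosome 10 stretch reached 27.4 replicate 1 peaks per 100 kb, followed by chr4:56635660-56897479 with 17.2 (45 replicate 1 and 52 replicate 2 peaks).

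After chromosome 10, the stretches with the most replicate 1 peaks were chr4:8146976-9789525 (136 and 224 peaks in replicates 1 and 2), chr12:32898719-34511003 (113 and 133), chr10:48412482-49813968 (101 and 161) and chr1:56670569-57653270 (100 and 162). These 4 held 97, 165, 72 and 54 H3K9ac peaks in *ddm1*, against 4, 1, 0 and 2 in WT, whereas the densest block held 2 in *ddm1* and 0 in WT.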

How the data were processed

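ChIP-seq peak lists of 9 labelled leaf samples were used, 1 list per sample. According to the methods and the submitters' processing notes, the authors trimmed reads with Trimmomatic (0.38), aligned them with Bowtie2 (2.3.5 in the notes, another version in the methods) to M82 V1.0 and called H3K27me3 peaks with MACS3 in broad mode at q of 0.05. The control was not given in the sources used here. The deposited values of each peak were its fold enrichment (a ratio over local background), −log10 p-value and −log10 q-value, with a score made from the latter, and in broad lists these are means over the region. The lowest −log10 q was 1.01 in WT, 1.00 in replicate 1 and 1.00 in replicate 2. Each list thus also held peaks whose deposited q lay above 0.05, and these were kept. The text file of the series was not used.

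Groups followed the labels. Peaks off the 12 chromosomes were left out (124, 58 and 0 in WT, replicate 1 and replicate 2). Chromosome ends were the last peak end in any list. Lengths are of merged peaks, a peak lies where its midpoint lies, and relative distance is that of the midpoint. The peak lists carry no read totals. The background level was solved from fold and −log10 p of peaks whose pileup came out whole within 0.001, which was 3.48%, 3.02% and 2.72% of those tried. Interval arithmetic was tested on simulated data. Python 3.11.15, numpy 2.4.6, pandas 2.3.3, scipy 1.17.1 and matplotlib 3.10.9 were used. Wilson and Newcombe intervals (95%) treat peaks as independent.

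Regions are named by rule, as the 3 windows, domains, clusters and shared gains with the largest values of each kind and the highest and lowest chromosome. Members and lists were chosen with earlier results of these data known. Alternatives were a q of 0.01, lists of equal size, joined peaks, a 50% overlap, other domain gaps, window sizes and fold limits, and leaving out a replicate or chromosome 1.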

Additional observations from a re-analysis of the deposited data

How the results depend on the processing

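The 12 results were recomputed under 81 alternative values. Of these, 62 stayed within a limit, 12 moved past it and 7 reversed. The limit was the SD of the 2 replicates. Results without an SD had a fold limit (window counts) or the Wilson interval (single shares). Leaving out 1 of 2 replicates always moves a mean by less than this SD, so those values could only keep or reverse their direction. Covered length without replicate 1, at 2.99 against a mean of 1.77 and an SD of 1.73, thus counted among the 62. No paired analysis was possible because WT had a single unnumbered list. Without replicate 1 or without replicate 2, the *ddm1* to WT ratio ran from 0.910 to 1.297 for peak number, from 0.552 to 2.99 for covered length and from 0.415 to 2.59 for the median gap. The difference in the share of peaks in clusters ran from -28.0 to 23.3 percentage points. In each of these the direction rests on which replicate is read, since the replicates lie on opposite sides of WT.

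With peaks of a q of 0.01 or lower, the mean ratio of peak number turned from above to below WT, at 0.773, and that of the median length turned the other way, to 1.09. The mean difference in relative distance was 0.195, the windows higher in both replicates numbered 143, 78.7% of replicate 1 gains were overlapped by replicate 2, and 23.4% of WT peaks were overlapped in both. Domains linked over 2 kb gave a mean difference of 8.59 percentage points in clusters, and the replicates stayed on opposite sides of WT at -8.18 and 25.4. When 50% of a peak had to be covered, 26.0% of WT peaks were overlapped on average and 15.9% in both, and 79.2% of the gains were shared. A change of at least 1.5-fold left 200 windows higher in both. The shared percentage of gains was 78.0 with lists of equal size and 83.4 without chromosome 1. Without peaks longer than 10 kb, an alternative chosen after seeing the data, 59.1% of the gains were shared, and 22.98% of WT peaks were overlapped in both. Peak number has no value with lists of equal size, which fix it.

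The distance from end to centre was larger in both replicates under each alternative run. A peak list does not show signal below the threshold, and no read totals were used, so depth limits what an absent peak means.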
